A study of Homo sapiens with 6 samples.

Results

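The genes described are 10 of the 26819 genes listed for C4-2 prostate cancer cells: the serine proteases TMPRSS2, TMPRSS4, TMPRSS13, PRSS8, PRSS22, PRSS23, ST14 and HPN and the Kunitz-type inhibitors SPINT1 and SPINT2. They were chosen by gene symbol, with the levels in cells with and without doxycycline already known, so their values in that comparison are given as a description and without a test. All 10 symbols are in the table once. The libraries fall into Dox, 3 libraries of cells given doxycycline for 24 hours at a labelled dose of 0.2 mg/ml, and Ctrl, 3 libraries of the same cells without it. The dose is printed as labelled, but it is high for an inducible line, which is commonly given micrograms per millilitre, and its unit may be an error. Both groups have the genotype Tet-O-YAP5SA C4-2, a castration-resistant line derived from LNCaP that carries a doxycycline-inducible YAP1 which LATS kinases cannot phosphorylate and so restrain. As the labels name no transgene-free cells treated with doxycycline, effects of the drug and of YAP1 cannot be told apart. They also do not say whether the line is 1 clone or whether replicates are separate cultures, and the spread between libraries may therefore be technical.

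Type II transmembrane serine proteases are anchored by a segment near their start and face the outside of the cell with a trypsin-like protease domain. They are made as inactive precursors and are switched on by a cut, often by one another. In epithelia matriptase (ST14) and the lipid-anchored prostasin (PRSS8) act on each other, and the transmembrane inhibitors HAI-1 (SPINT1) and HAI-2 (SPINT2) block both through their Kunitz domains. Prostate luminal cells are known for TMPRSS2, which androgen induces, and hepsin (HPN) is known for its high level in prostate cancer. PRSS22 and PRSS23 are known as secreted enzymes, so the name membrane-linked holds for the other members only.

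Levels are in TPM, which counts reads per length of transcript and scales every library to the same total. YAP1 averaged 269 ± 6.92 TPM in Dox and 56.8 ± 3.72 TPM in Ctrl (SD, n = 3 each), and its target CYR61 averaged 2648 ± 46.2 TPM in Dox and 12.0 ± 0.749 TPM in Ctrl. Of the markers of luminal prostate epithelium, 6 summed to between 4526 and 4556 TPM in Dox and between 6030 and 6101 TPM in Ctrl, and the basal markers to between 1.17 and 1.76 TPM in Dox and between 1.36 and 1.71 TPM in Ctrl. Of the markers of other cell types, 2 of 3 for stroma, 2 of 3 for leukocytes and 1 of 3 for mast cells were listed, and none of these lists summed to more than 0.288 TPM in any library. CDH5, the 1 listed of 2 endothelial markers, was at 0.381 to 0.567 TPM in Dox and at 0 to 0.0197 TPM in Ctrl. The part of these markers in the results below was not tested. Being bulk libraries, they cannot tell a change in every cell from a change in the share of cells that express a gene.

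TMPRSS2 held the highest level of the 10 genes in both groups. It was at 892, 917 and 855 TPM in Dox 1, 2 and 3, against 324, 373 and 335 TPM in Ctrl 1, 2 and 3. The groups did not overlap, and the lowest Dox library was 2.29-fold above the highest Ctrl library. The means were 888 ± 31.1 TPM in Dox and 344 ± 25.7 TPM in Ctrl (SD, n = 3 each), a 2.58-fold higher level, resting on 40852 to 46440 reads in Dox and 17441 to 19242 reads in Ctrl. In Dox, 99.4% of all listed genes had a lower mean level than TMPRSS2, and in Ctrl 98.2%.

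ST14, the matriptase gene, differed little. Its levels were 194, 216 and 226 TPM in Dox 1, 2 and 3 and 206, 223 and 216 TPM in Ctrl 1, 2 and 3. The groups overlapped, and the means of 212 ± 16.3 TPM in Dox and 215 ± 8.59 TPM in Ctrl (SD, n = 3 each) had a ratio of 0.987. Dox 1 was the lowest of the 6 libraries and Dox 3 the highest. Reads numbered 6319 to 8643 in Dox and 7976 to 8171 in Ctrl. On the log2(TPM + 1) scale the difference was -0.02 ± 0.06 (SE) as deposited, -0.13 with the libraries rescaled by median ratios and -0.08 with quantile normalization, and between -0.07 and 0.04 when a library was left out.

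HPN, which encodes hepsin, an activator of the hepatocyte growth factor precursor, was lower with doxycycline. It was at 43.7, 46.3 and 50.2 TPM in Dox 1, 2 and 3, against 80.1, 83.9 and 82.4 TPM in Ctrl 1, 2 and 3. Every Dox library lay below every Ctrl library, and the lowest Ctrl library was 1.59-fold above the highest Dox library. The means were 46.8 ± 3.27 TPM in Dox and 82.1 ± 1.92 TPM in Ctrl (SD, n = 3 each), 1.76-fold higher in Ctrl. The reads behind these values numbered 1106 to 1493 in Dox and 2369 to 2427 in Ctrl. In the order of levels HPN took place 7 in Dox, behind PRSS22, and place 6 in Ctrl, ahead of PRSS22.

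The remaining transmembrane proteases were low. TMPRSS13, known for processing viral surface proteins and for a role in the skin barrier of mice, was at 6.15, 6.84 and 6.99 TPM in Dox 1, 2 and 3 and at 3.68, 3.89 and 4.23 TPM in Ctrl 1, 2 and 3. The groups did not overlap, with means of 6.66 ± 0.449 TPM in Dox and 3.93 ± 0.278 TPM in Ctrl (SD, n = 3 each), a 1.69-fold higher level. TMPRSS4, reported at high levels in pancreatic and other carcinomas, was near the limit of detection. Its levels of 0.148, 0.122 and 0.149 TPM in Dox came from 11, 10 and 13 reads, and those of 0.169, 0.227 and 0.202 TPM in Ctrl from 15, 19 and 17 reads. All Dox libraries were below all Ctrl libraries, but 3 reads on this gene are worth 0.0337 to 0.0404 TPM, so the gap between the groups, 0.149 against 0.169 TPM, is smaller than what 3 reads give. TMPRSS4 did not reach the level required for testing, at least 1 TPM in at least 3 libraries.

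**Figure D1:**
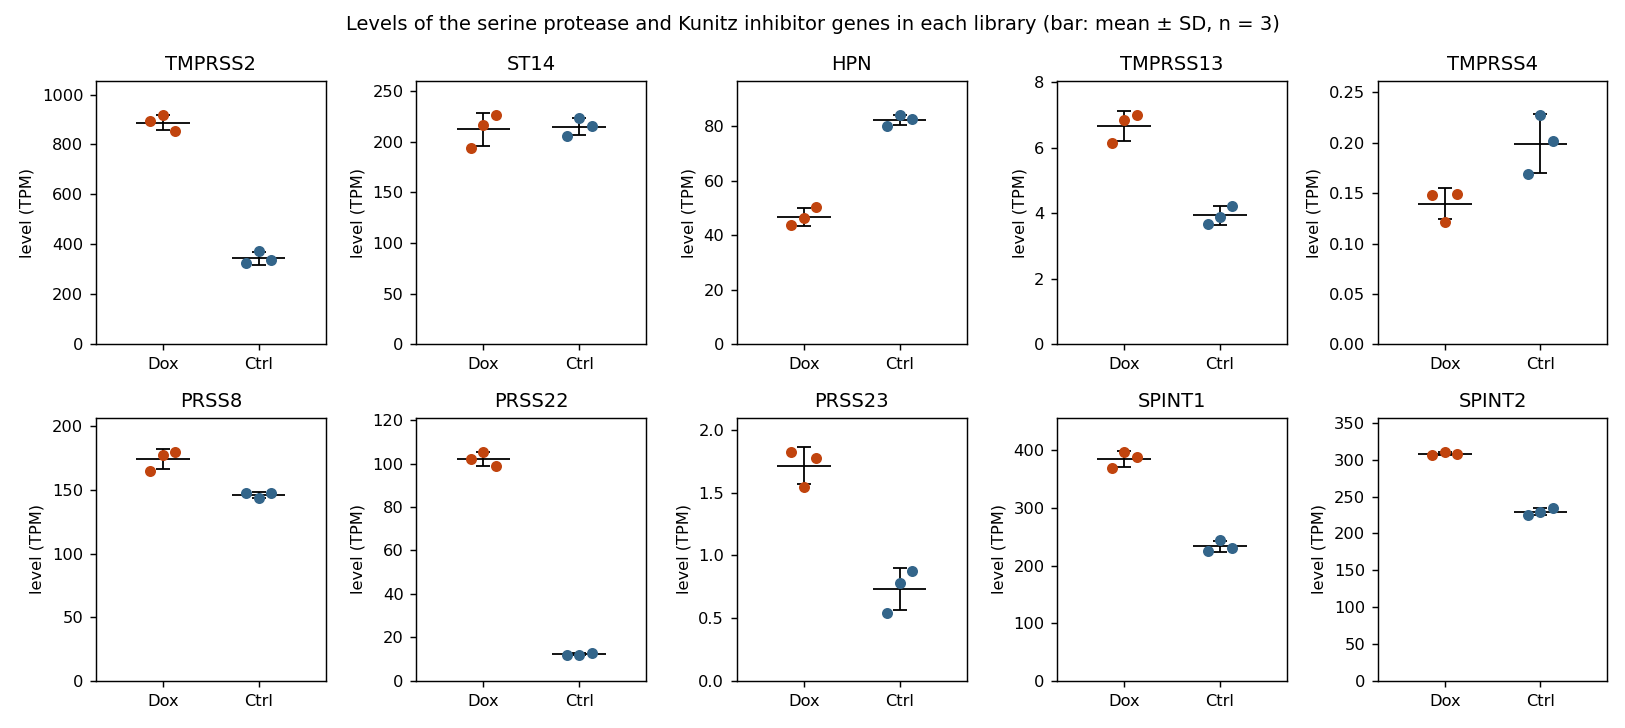
Level in TPM of each of the 10 genes in the 3 Dox and 3 Ctrl libraries, each panel with its own axis from 0; points are libraries, the line is the group mean and the bars are ± SD (n = 3). Dox lies above Ctrl without overlap for TMPRSS2, TMPRSS13, PRSS8, PRSS22, PRSS23, SPINT1 and SPINT2, below it for HPN and TMPRSS4, and ST14 overlaps.

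PRSS22 had the widest separation. The gene encodes tryptase epsilon, a trypsin-like enzyme of airway and other epithelia. It was at 102, 105 and 99.0 TPM in Dox 1, 2 and 3, against 12.1, 12.1 and 12.8 TPM in Ctrl 1, 2 and 3. The lowest Dox library stood 7.72-fold above the highest Ctrl library, and the means of 102 ± 3.15 TPM in Dox and 12.3 ± 0.418 TPM in Ctrl (SD, n = 3 each) differed 8.28-fold. These values rest on 1824 to 2081 reads in Dox and 244 to 260 reads in Ctrl. In Dox 93.2% of the listed genes had a lower mean level than PRSS22, and in Ctrl 71.2%. An antisense transcript that shares 29 exon bases with PRSS22 in GENCODE 29 had at most 2 reads in any library.

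PRSS8, which encodes prostasin, an activator of the epithelial sodium channel, was modestly higher with doxycycline. It was at 165, 178 and 180 TPM in Dox 1, 2 and 3, against 148, 143 and 148 TPM in Ctrl 1, 2 and 3. The groups did not overlap, but the lowest Dox library was only 1.12-fold above the highest Ctrl library. The means were 174 ± 7.92 TPM in Dox and 146 ± 2.46 TPM in Ctrl (SD, n = 3 each), a 1.19-fold higher level. Its log2 difference of 0.25 ± 0.04 (SE) became 0.14 with median-ratio rescaling and 0.19 with quantile normalization. Over all tested genes the median difference was 0.10 on the deposited scale, and these rescalings moved it by -0.10 and -0.13.

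PRSS23, a secreted serine protease expressed in several carcinomas, was close to the lower limit of the tested range. Its levels were 1.82, 1.54 and 1.77 TPM in Dox 1, 2 and 3, against 0.542, 0.779 and 0.873 TPM in Ctrl 1, 2 and 3. The groups did not overlap, with 150 to 183 reads in Dox and 57 to 87 reads in Ctrl. The ratio of the means was 2.34, from 1.71 ± 0.149 TPM in Dox and 0.731 ± 0.170 TPM in Ctrl (SD, n = 3 each). PRSS23 passed the 1 TPM filter through its Dox libraries only. In GENCODE 29 it shares 1399 of 11725 exon bases with FZD4 on the opposite strand, which was at 7.36 ± 0.272 TPM in Dox and 8.29 ± 0.810 TPM in Ctrl. No source used here says whether counting used the strand, so reads of that stretch cannot be told apart.

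SPINT1, the gene of HAI-1, was second in level behind TMPRSS2. It was at 369, 397 and 389 TPM in Dox 1, 2 and 3, against 225, 244 and 231 TPM in Ctrl 1, 2 and 3. The groups did not overlap, with 9914 to 12266 reads in Dox and 7039 to 7387 reads in Ctrl. The means were 385 ± 14.3 TPM in Dox and 234 ± 9.80 TPM in Ctrl (SD, n = 3 each), a 1.65-fold higher level. The antisense partner of SPINT1, which shares 100 exon bases with it, was at 23.7 ± 2.74 TPM in Dox and 22.5 ± 1.79 TPM in Ctrl.

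SPINT2, the gene of HAI-2, was higher by a smaller ratio. It was at 307, 310 and 307 TPM in Dox 1, 2 and 3, against 225, 229 and 235 TPM in Ctrl 1, 2 and 3. The means of 308 ± 1.83 TPM in Dox and 229 ± 4.76 TPM in Ctrl (SD, n = 3 each) were 1.34-fold apart, without overlap. In GENCODE 29, CTB-102L5.4 (AC011479.1) overlaps SPINT2 on the same strand and shares 242 exon bases with it, which are 4.65% of SPINT2 and 44.3% of CTB-102L5.4. CTB-102L5.4 was listed at 902 ± 11.7 TPM in Dox and 676 ± 6.66 TPM in Ctrl, a ratio of 1.33, and had 3136 to 4271 reads in the 6 libraries, against 10016 to 14062 reads for SPINT2. No source used here says how reads of the shared bases were divided between these genes, so the level of SPINT2 is uncertain to that extent. In the order of levels no neighbours overlapped in Dox, and SPINT1 and SPINT2 were the only neighbours to overlap in Ctrl.

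Upstream sequences from RefSeq (GRCh38.p14), from 250 bases before to 50 bases after a gene's start, were at hand for SPINT1, HPN and PRSS23. The entries of SPINT1 and HPN are printed because these genes were well expressed and stood on opposite sides of their Ctrl levels. The SPINT1 entry covers chr15:40843798-40844097 and the HPN entry chr19:35041471-35041770, both on the plus strand, and capitals mark the letters of a searched motif.
SPINT1: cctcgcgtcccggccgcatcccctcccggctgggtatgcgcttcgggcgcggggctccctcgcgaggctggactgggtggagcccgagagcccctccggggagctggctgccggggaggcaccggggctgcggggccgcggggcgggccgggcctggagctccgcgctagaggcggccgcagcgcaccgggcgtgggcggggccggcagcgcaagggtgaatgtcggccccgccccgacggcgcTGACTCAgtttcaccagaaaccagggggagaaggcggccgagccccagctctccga
HPN: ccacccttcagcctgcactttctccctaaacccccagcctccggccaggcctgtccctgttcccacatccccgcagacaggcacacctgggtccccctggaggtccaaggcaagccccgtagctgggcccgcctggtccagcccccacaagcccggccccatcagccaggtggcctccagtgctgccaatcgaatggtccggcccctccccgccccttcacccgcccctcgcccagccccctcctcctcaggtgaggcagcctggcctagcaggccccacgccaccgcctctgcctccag
Searched on both strands were GGAATG, bound by TEAD factors, and TGANTCA, bound by AP-1. The SPINT1 entry holds TGACTCA at position -6 relative to the start. A second SPINT1 entry, from an alternative start, the HPN entry and both PRSS23 entries hold neither motif. Among all 35114 RefSeq entries of this length, 14.0% hold GGAATG and 7.71% TGANTCA. The printed SPINT1 and HPN entries have GC contents of 77.7% and 71.0%, against a median of 58.7% for all entries.

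The order of the differences did not hang on the scaling of the libraries for the genes farthest from 0. On the log2(TPM + 1) scale PRSS22 differed by 2.95 ± 0.04 (SE) as deposited, by 2.84 with median-ratio rescaling and by 2.82 with quantile normalization. For TMPRSS2 these differences were 1.37 ± 0.05, 1.25 and 1.46, and for SPINT1 0.72 ± 0.04, 0.60 and 0.72. SPINT2 differed by 0.42 ± 0.03, 0.31 and 0.40. TMPRSS13 differed by 0.63 ± 0.08, 0.54 and 0.47, and PRSS23 by 0.65 ± 0.13, 0.59 and 0.47. HPN, the gene lower in Dox by more than any other of the 9 tested, differed by -0.80 ± 0.05, -0.91 and -0.91. Leaving out each library in turn kept HPN between -0.85 and -0.76, TMPRSS2 between 1.32 and 1.43, and PRSS22 between 2.93 and 2.98. PRSS8 ranged from 0.23 to 0.29 in the same way and SPINT1 from 0.69 to 0.75.

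Summed over the 8 proteases, the level was 1432 ± 34.6 TPM in Dox and 805 ± 33.5 TPM in Ctrl (SD, n = 3 each), 1.78-fold higher. Without TMPRSS2 the remaining 7 summed to 544 ± 26.9 TPM in Dox and 460 ± 9.28 TPM in Ctrl, a ratio of 1.18. PRSS22 alone, at 102 TPM in Dox and 12.3 TPM in Ctrl, gained more than the gap between these sums. The inhibitors SPINT1 and SPINT2 together were at 693 ± 15.8 TPM in Dox and 463 ± 11.5 TPM in Ctrl, 1.50-fold higher. The mixture of the transcripts therefore shifted. TMPRSS2 made up 41.8% ± 1.25 of the summed level in Dox and 27.1% ± 1.11 in Ctrl. PRSS22 made up 4.81% ± 0.115 in Dox and 0.974% ± 0.0457 in Ctrl, while ST14 had a share of 9.98% ± 0.679 in Dox and 16.9% ± 0.125 in Ctrl and HPN 2.20% ± 0.151 in Dox and 6.48% ± 0.0836 in Ctrl. The share of SPINT1 overlapped between the groups, at 18.1% ± 0.335 in Dox and 18.4% ± 0.178 in Ctrl.

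**Figure D2:**
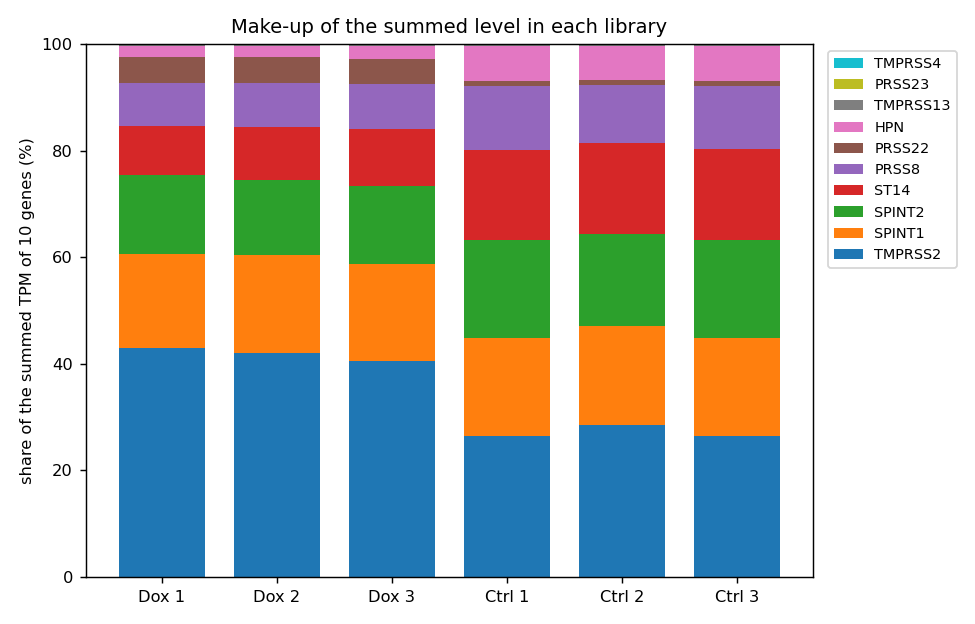
Share in percent of the summed TPM of the 10 genes taken by each gene, 1 stacked bar per library, the 3 Dox libraries left and the 3 Ctrl libraries right. TMPRSS2 takes 40.4 to 42.9% in the Dox libraries and 26.5 to 28.4% in the Ctrl libraries, and the bands of ST14, PRSS8 and HPN are narrower in Dox.

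Ratios of TPM within a library do not depend on any single factor that scales the whole library, though quantile normalization can change them. SPINT1 over ST14, the inhibitor over its best known target protease, was 1.90, 1.84 and 1.72 in Dox 1, 2 and 3 and 1.10, 1.10 and 1.07 in Ctrl 1, 2 and 3. SPINT1 thus exceeded ST14 clearly in each Dox library, while the transcripts were near parity in Ctrl. SPINT2 over ST14 averaged 1.46 ± 0.112 in Dox and 1.07 ± 0.0375 in Ctrl (SD, n = 3 each). SPINT1 over PRSS8 averaged 2.21 ± 0.0413 in Dox and 1.60 ± 0.0935 in Ctrl. SPINT2 over PRSS8 averaged 1.77 ± 0.0768 in Dox and 1.57 ± 0.0373 in Ctrl, the smallest shift among these pairs of inhibitor and protease, with groups that did not overlap. Against HPN, SPINT1 stood at 8.25 ± 0.446 in Dox and 2.84 ± 0.0620 in Ctrl. Against TMPRSS2 the order was turned round, with SPINT1 at 0.434 ± 0.0204 of TMPRSS2 in Dox and 0.679 ± 0.0216 in Ctrl. These are ratios of transcripts, and neither protein levels nor protease activity were measured.

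TMPRSS2 and HPN also parted in relation to KLK3, the gene of prostate-specific antigen, a secreted serine protease. TMPRSS2 over KLK3 was 0.495 ± 0.0219 in Dox and 0.105 ± 0.0101 in Ctrl (SD, n = 3 each), 4.73-fold higher. HPN over KLK3 was 0.0260 ± 0.00172 in Dox and 0.0249 ± 0.00110 in Ctrl, and its groups overlapped. As deposited, the log2 differences were -0.80 for HPN and -0.88 for KLK3, and with quantile normalization -0.91 for HPN and -0.79 for KLK3.

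**Figure D3:**
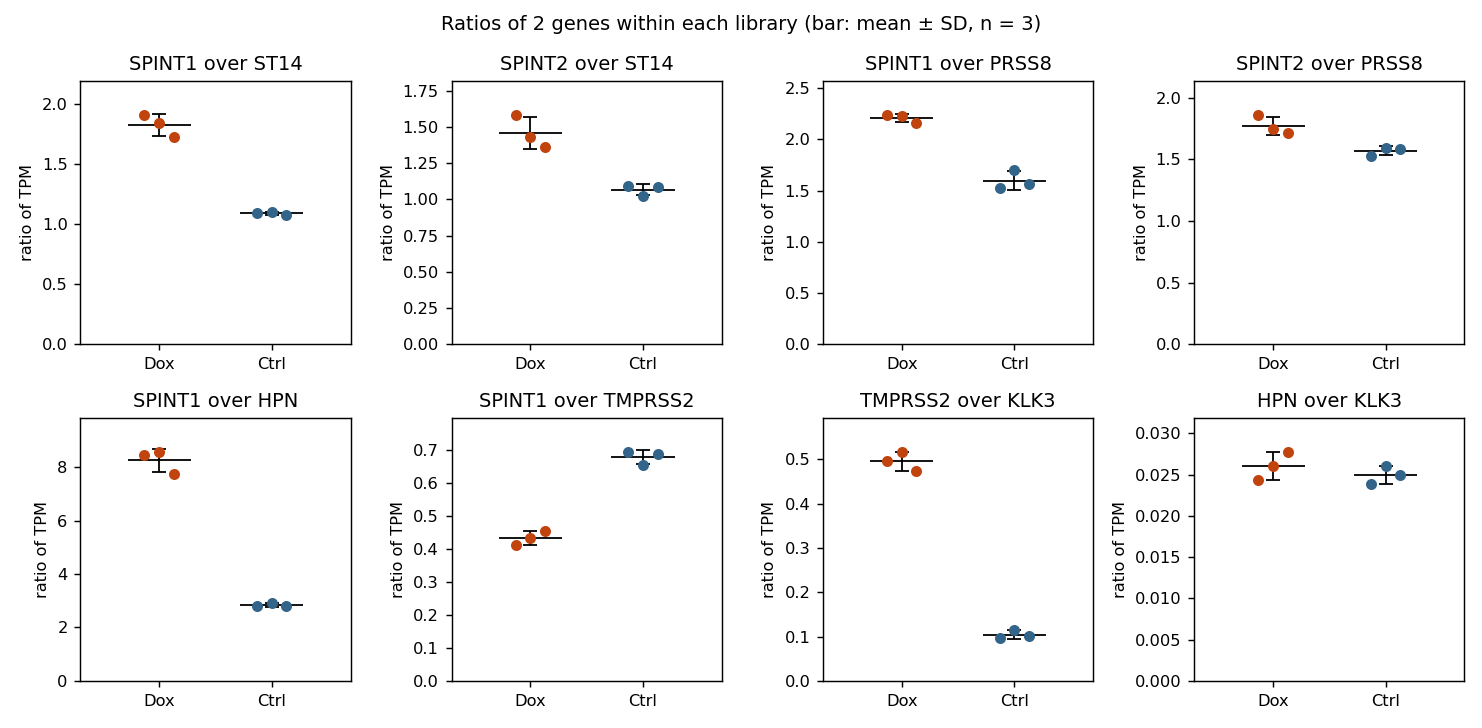
Ratio of the TPM of 2 genes within each library, for 8 pairs, in the 3 Dox and 3 Ctrl libraries; points are libraries, the line is the mean and the bars are ± SD (n = 3). Dox lies above Ctrl for each pair shown except SPINT1 over TMPRSS2, which is lower, and HPN over KLK3, which overlaps.

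Across all genes, 14833 passed the filter on low levels and entered a limma fit of log2(TPM + 1). At a Benjamini-Hochberg adjusted p under 0.05, 53.7% of them were called, 35.9% higher and 17.8% lower in Dox. Of the 10 genes 9 were tested, and 7 were called higher, 1 lower and 1, ST14, in neither direction. Their median difference was 0.63, against 0.10 for all tested genes. Dox libraries lay above Ctrl libraries for 40.8% of the tested genes and below for 21.1%, and for 7 and 1 of the 9 tested. Since the genes were chosen on this comparison and 1 of them passed the filter through Dox alone, nothing is read from these counts.

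The related genes that follow, listed by family or as substrates and receptors, were tested in the same fit. These lists were drawn up with earlier results of these data known, so their counts are not independent evidence. Of 13 other transmembrane serine proteases 9 were listed and 1 was tested. This was TMPRSS11E (DESC1), a protease of squamous epithelia, which fell to 1.18 ± 0.103 TPM in Dox, against 2.37 ± 0.0678 TPM in Ctrl (SD, n = 3 each; log2 difference -0.63 ± 0.10, limma adjusted p = 0.0013). The other 8 listed were at most 0.354 TPM in any library. Among those listed, TMPRSS2, ST14, HPN and TMPRSS13 were thus the transmembrane proteases of this type above 3 TPM in every library. Among 27 other PRSS and tryptase genes 11 were listed and 4 tested, and 1 rose. PRSS27, a relative of prostasin also called pancreasin or marapsin, was at 14.1 ± 0.415 TPM in Dox and 7.85 ± 0.235 TPM in Ctrl, 1.79-fold higher (limma adjusted p = 2.1e-05). PRSS12, PRSS16 and PRSS53 did not pass (limma adjusted p = 0.058, 0.064 and 0.15). PRSS12 entered the test through its Dox libraries only.

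Of 15 kallikrein-related peptidases, secreted serine proteases encoded side by side, 14 were listed and 6 tested, of which 5 fell and none rose, with a median log2 difference of -0.65. KLK1, the other one tested, did not pass (limma adjusted p = 0.386). The 8 not tested were low, and 2 of them, KLK5 and KLK14, were higher in Dox without overlap. KLK11 was lower in Dox without overlap. Its levels were 0.300, 0.155 and 0.0730 TPM in Dox 1, 2 and 3 and 0.430, 0.343 and 0.378 TPM in Ctrl 1, 2 and 3. KLK5 was at most 0.292 TPM, and its lowest Dox library, at 0.0688 TPM, barely exceeded its highest Ctrl library, at 0.0675 TPM. KLK14 was at 1.04, 0.625 and 0.490 TPM in Dox 1, 2 and 3. In Ctrl 1, 2 and 3 KLK14 was at 0.192, 0.205 and 0.203 TPM. With no filter on low levels KLK14 was called higher (limma adjusted p = 0.025). KLK11 and KLK5 were not called (limma adjusted p = 0.0844 and 0.226). KLK2, which encodes an activator of prostate-specific antigen, was at 51.3 ± 1.19 TPM in Dox and 133 ± 3.67 TPM in Ctrl (SD, n = 3 each), 2.59-fold higher in Ctrl (limma adjusted p = 1.3e-07). KLK15 was at 4.70 ± 0.453 TPM in Dox and 9.99 ± 0.862 TPM in Ctrl (limma adjusted p = 8.4e-05), and KLK12 also fell (limma adjusted p = 0.011). KLK3 had a log2 difference of -0.88 ± 0.03, beside -0.80 ± 0.05 for HPN and 1.37 ± 0.05 for TMPRSS2 (SE).

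Among other Kunitz-domain proteins and serpin inhibitors, 17 of 22 genes were listed and 5 tested, of which 2 rose and 2 fell. The precursors APP and APLP2, whose longer forms carry a Kunitz domain, rose. APP was at 333 ± 11.6 TPM in Dox and 267 ± 7.38 TPM in Ctrl (SD, n = 3 each; limma adjusted p = 0.00025), and APLP2 at 300.5 ± 6.42 TPM in Dox and 249 ± 5.89 TPM in Ctrl (limma adjusted p = 0.00025). After median-ratio rescaling their log2 differences were 0.20 for APP and 0.16 for APLP2, against 0.32 and 0.27 as deposited. The table does not separate forms with and without that domain. TFPI, the inhibitor of the tissue factor pathway, fell to 2.53 ± 0.228 TPM in Dox, against 3.95 ± 0.172 TPM in Ctrl, and the intracellular serpin SERPINB6 was 1.13-fold higher in Ctrl (limma adjusted p = 0.0026 and 0.0047). The log2 difference of SERPINB6 was -0.18 as deposited and -0.29 after median-ratio rescaling. The median of the 5 tested was -0.05.

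Of 17 substrates of these proteases and receptors of their products, 14 were listed and 10 tested, with 6 higher and 1 lower and a median of 0.22. With no filter on low levels 8 were higher, the additional calls being MST1R and MST1, named after their values were seen. MST1R, the receptor of macrophage-stimulating protein, was at 1.43, 0.967 and 1.13 TPM in Dox 1, 2 and 3 and at 0.0851, 0.0453 and 0.0673 TPM in Ctrl 1, 2 and 3 (limma adjusted p = 0.000548 with no filter). MST1, the gene of that ligand, which hepsin and matriptase can activate, averaged 0.460 ± 0.106 TPM in Dox and 0.160 ± 0.0420 TPM in Ctrl (SD, n = 3 each; limma adjusted p = 0.0181 with no filter). Both were low in every library, without overlap between the groups, and MST1 has near-identical copies in the genome, so its reads are uncertain. MET, the receptor of hepatocyte growth factor, rose 2.65-fold to 5.68 ± 0.101 TPM in Dox, against 2.14 ± 0.466 TPM in Ctrl (SD, n = 3 each; limma adjusted p = 0.00015). EGFR, a receptor that prostasin can cleave, rose 1.43-fold to 80.0 ± 4.48 TPM in Dox, against 56.0 ± 3.79 TPM in Ctrl (limma adjusted p = 0.00028). CDCP1, a surface glycoprotein that matriptase cleaves, rose 1.25-fold to 18.7 ± 0.844 TPM in Dox, against 14.9 ± 0.968 TPM in Ctrl (limma adjusted p = 0.0043). Its log2 difference of 0.31 as deposited became 0.20 with median-ratio rescaling and 0.15 with quantile normalization, and the call held under each alternative. Subunits of the epithelial sodium channel, which prostasin and matriptase activate by cleavage, moved apart. SCNN1A rose 2.15-fold to 79.1 ± 3.74 TPM in Dox, against 36.8 ± 1.29 TPM in Ctrl (limma adjusted p = 1.5e-06), whereas SCNN1G fell to 1.50 ± 0.198 TPM in Dox, against 3.26 ± 0.0143 TPM in Ctrl (limma adjusted p = 0.00043). SCNN1B, at 0.722 ± 0.235 TPM in Dox and 1.20 ± 0.136 TPM in Ctrl, did not pass (limma adjusted p = 0.067) and entered the test through Ctrl alone.

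The other members of that list that rose, named after their values were seen, were FN1 (1.17-fold) and F2RL1 (1.16-fold), the gene of the protease-activated receptor PAR2, at 67.7 ± 0.178 TPM in Dox and 58.2 ± 1.58 TPM in Ctrl (SD, n = 3 each). The log2 difference of F2RL1, 0.22 as deposited, was 0.10 after either rescaling. For FN1 it was 0.23 as deposited and 0.12 after median-ratio rescaling, where its call ended (limma adjusted p = 0.055). EPCAM, which matriptase cleaves when HAI-2 is missing, had 142 ± 6.13 TPM in Dox and 149 ± 1.48 TPM in Ctrl and did not pass (limma adjusted p = 0.15). Under median-ratio rescaling and under quantile normalization EPCAM and SCNN1B were called lower, which made 3 lower genes in place of 1.

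**Figure D4:**
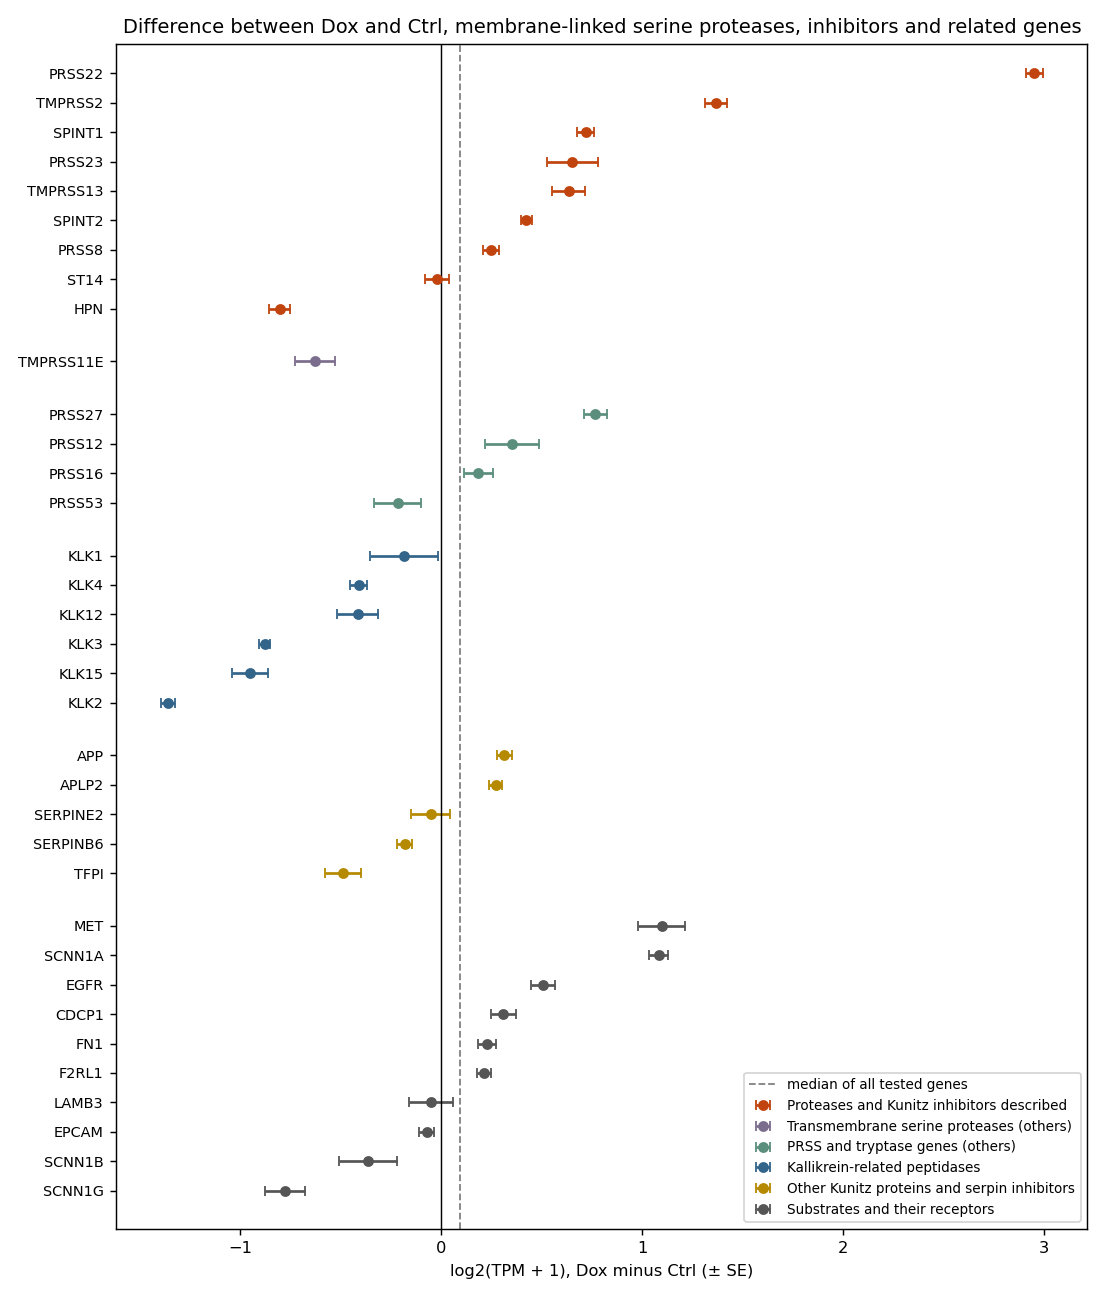
Difference between Dox and Ctrl on the log2(TPM + 1) scale, with its SE from limma, for the 9 tested proteases and inhibitors described (top, no test drawn from them) and the tested genes of 5 related lists; the dashed line is the median of all tested genes, 0.10. PRSS22 and TMPRSS2 lie farthest to the right, and all 6 kallikrein-related peptidases tested lie left of 0.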

How the data were processed

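Stranded mRNA libraries (TruSeq) of 6 samples in 2 groups of 3 were analysed, grouped by their titles. Per the submitters' processing notes, FastQC 0.11.2, STAR 2.5.3a, featureCounts and edgeR (with no role given) were used with hg19. No source used here gives the annotation release or the strand setting. The authors deposited 1 TPM value per gene and library, without replicate pooling.

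The rule takes the first entry of each symbol (222 entries repeat one). The members and the related gene lists were chosen with earlier results of these data known, and some genes of the lists are not reported here. A gene was tested if 3 or more libraries held at least 1 TPM. The test was limma's (version 3.58.1, R 4.3.3; lmFit, then eBayes with trend) on log2(TPM + 1), two-sided, Benjamini-Hochberg over all tested genes, threshold 0.05. This scale understates changes of low genes. Named are all members and, per list and direction, up to 4 called genes with the largest difference and no overlap. Fold values are ratios of mean TPM.

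Whole reads were recovered from TPM with GENCODE 29 exon lengths (tolerance 0.01 reads), which gave whole reads for 9115 of 14833 tested genes. All genes with whole reads, tested or not, had 15094775 to 17659311 reads per library. They held 63.4% to 64.9% of the TPM, so these totals are not full depths. For other members the smallest fitting length was used. Floors of 3 reads cover counting error only. No libraries were merged, since within a group each pair had a chi-square per gene between 2.44 and 4.73, above counting error. Alternatives were a pseudocount of 0.1, no filter, a filter at a mean of 5 TPM, quantile normalization, median-ratio rescaling, a fit without the trend, a fit with a replicate block and fits lacking 1 library each. Figures were drawn with matplotlib 3.10.9.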

Additional observations from a re-analysis of the deposited data

How the results depend on the processing

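The members were called 7 higher and 1 lower under each alternative, except 6 higher with a mean of at least 5 TPM, where PRSS23 is not tested. Of the members' values under alternatives 98 moved by less than 1 SD between replicates, 18 by more and none turned its sign where called. Most of the 98 were bound to stay. Filters, trend and replicate block leave a log2 difference unchanged, and leaving out 1 of 3 libraries cannot move it by 1 SD. All 18 came from the pseudocount of 0.1, median-ratio rescaling or quantile normalization. Most of the members' values moved with median-ratio rescaling and with quantile normalization. With the pseudocount of 0.1 only TMPRSS13, PRSS22 and PRSS23 moved. Over all genes the counts were 5319 higher and 2640 lower, with 3915 higher and 4010 lower after median-ratio rescaling, 3536 higher and 4348 lower after quantile normalization, and 4445 to 5278 higher and 2204 to 2417 lower when a library was left out. These scalings shift the median of all genes. With a mean of at least 5 TPM fewer genes are tested, and the lower counts were 0 for other transmembrane proteases, 1 for other Kunitz proteins and serpins and 0 for substrates. Under that filter 4 kallikrein-related peptidases were lower and 5 substrates higher. Without a variance trend 2 PRSS genes were higher and 2 substrates lower, after quantile normalization 1 PRSS gene was lower, and with no filter 1 kallikrein-related peptidase was higher. Substrates had 3 lower genes after either rescaling, 5 higher genes after median-ratio rescaling and 8 higher genes with no filter. Leaving out a library gave 1 to 2 higher PRSS genes (2 without Dox replicate 3 or Ctrl replicate 2) and changed no other count of these lists. LAMB3, which was not called, lay between -0.12 and 0.024 when a library was left out, positive without Ctrl replicate 2. The cause of these changes was otherwise not tested.

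Replicate numbers did not pair the libraries: deviations from the group means of same-numbered Dox and Ctrl libraries correlated at -0.0085, 0.063 and 0.0035 over genes, and not every library correlated best with its own number. With a replicate block 5223 genes were higher and 2618 lower, and 7 members higher and 1 lower. Depth limits TMPRSS4 and PRSS23 most.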
